A study of Mus musculus with 4 samples.

Results

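A set of 10 genes that sense misfolded protein in the endoplasmic reticulum (ER), or that fold or remove it there, was followed in sorted mouse fetal liver cells labelled as lacking the RNA-editing enzyme ADAR1. They were chosen by name from the deposited table of 10716 genes, and 10 of the 10 names were found. The genes are the sensors Ern1 and Atf6 and the transcription factor Xbp1, the ER-associated degradation genes Herpud1, Edem1, Sel1l and Syvn1, and the lumen folding genes Pdia4, Sdf2l1 and Calr.

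The samples were RNA sequencing libraries of C57BL/6 fetal livers at embryonic day 14.5, from erythroid cells sorted for the fluorescent protein YFP of an R26eYFP reporter. There were 2 libraries labelled knockout (replicates 1 and 2), with the genotype given as Epor-Adar / +, so that Cre expressed from the Epor locus (erythropoietin receptor) targets Adar. The 2 libraries labelled wild type (replicates 3 and 8) are described as controls. The same sort is given for all 4 libraries, and the labels state neither whether the controls carry the Cre allele nor whether each library came from a separate embryo. P-values therefore measure only the spread between these libraries. The design sets Adar deletion against control in one cell lineage.

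Proteins that enter the secretory pathway fold in the ER lumen with the help of chaperones and disulfide isomerases. When misfolded chains build up, the membrane sensors IRE1 (the product of Ern1), ATF6 and PERK start the unfolded protein response. IRE1 splices the mRNA of Xbp1 into the form that encodes the active factor, and ATF6 is cut in the Golgi to free its own active fragment. Both factors are known to raise genes of folding and of ER-associated degradation, which carries misfolded chains back to the cytosol for the proteasome. Red cells make mostly cytosolic haemoglobin and lose their ER as they mature.

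Total counts ran from 28356401 to 44016809 per library. Adar had 67.1 and 102 CPM (counts scaled to a library of common size after TMM normalization, the level used for every gene here) in the libraries labelled knockout, against 50.9 and 46.9 CPM in the wild-type libraries. It was thus not lower where the deletion is labelled (log2 fold change 0.79, SE 0.25, edgeR adjusted p = 0.377), and counts of the whole gene do not single out a deleted exon. Y-linked counts went against the labelled sex in 3 of the 4 libraries. They summed to 382 and 0.078 CPM in the libraries labelled knockout, against 203 and 226 CPM in wild type, so that the contrast of replicate 1 with replicate 2 is also one of sex by these counts. Of 11 erythroid markers in the table, none was at 0, and their summed level was 27393 and 30030 CPM in the libraries labelled knockout and 36128 and 25853 CPM in the wild-type libraries. Slc4a1 was the largest part of that sum, and 9 of the 11 were lower in knockout-labelled replicate 1 than in replicate 2. Klf1, an erythroid transcription factor, had 204 and 520 CPM in the libraries labelled knockout, against 689 and 533 CPM in wild type. The 7 neutrophil and myeloid markers measured summed to 305 CPM in knockout-labelled replicate 1 and 37.3 in replicate 2, against 41.1 and 45.3 CPM in wild type, so that replicate 1 stood apart. The 8 megakaryocyte markers summed to 140 and 85.5 CPM in the libraries labelled knockout and 43.9 and 70.7 CPM in wild type. Itga2b was the largest part, with 103 and 59.3 CPM in the libraries labelled knockout and 19.8 and 51.0 CPM in wild type. Of the 8, 5 had both knockout-labelled values above both wild-type values, against 27.4% of all genes, and 0 had both below, against 26.7%. A log2 fold change above 0 was seen for 7 of the 8, against 50% of all genes. The 12 macrophage markers summed to 52.7 and 29.99 CPM in the libraries labelled knockout against 79.8 and 42.9 CPM in wild type, and the 12 hepatoblast markers to 65.5 and 77.5 CPM in the libraries labelled knockout against 139 and 56.6 CPM in wild type. Of the macrophage markers, 8 had both knockout-labelled values below both wild-type values, against 26.7% of all genes. Lyz2, which neutrophils also express, made up 43.1 CPM of the sum in knockout-labelled replicate 1. The other 11 summed to 9.62 and 21.7 CPM in the libraries labelled knockout, against 70.1 and 32.03 CPM in wild type. No measured marker of these lists was at 0 counts, and none of 6 mast cell or 9 B cell markers was in the table. The part of these other cells, of the difference in erythroid markers and of sex in the results below was not tested, and in bulk samples fewer cells of a type cannot be told apart from less RNA per cell.

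Promoter windows from RefSeq (build GRCm38.p6, from 250 bases before the start to 50 after it) were found for 9 of the 10 genes, without Atf6. They were searched on both strands for the ER stress response element ERSE, which is CCAAT and CCACG held apart by any 9 bases, and its variant ERSE-II, which is ATTGG and CCACG held apart by 1 base. Also searched were the core of the unfolded protein response element (TGACGTGG), the core of the C/EBP-ATF element bound by ATF4 (TGATGNAA) and the short element CCACG, which lies within both ER stress elements. ERSE was in 0.119% of all 32851 promoter windows of that length, ERSE-II in 0.0365%, TGACGTGG in 0.676%, TGATGNAA in 3.97% and CCACG in 32.8%. Of the 9 genes, Calr and Syvn1 held ERSE, Herpud1 held ERSE-II and, on the opposite strand, TGATGNAA, and 8 of 9 held CCACG, with Xbp1 the exception. TGACGTGG was in 0 of the 9. A match is only a match of letters in this window. The 3 windows with a whole element, and those of Sel1l and Ern1, which had the largest differences and, of the elements listed, only CCACG, are printed 5′ to 3′ on the gene's strand, with matches to ERSE, ERSE-II, TGATGNAA and CCACG in capitals. They lie at chr8:94386179-94386478 (plus strand) for Herpud1, chr19:6046326-6046625 (plus) for Syvn1, chr8:84846882-84847181 (minus) for Calr, chr12:91849108-91849407 (minus) for Sel1l and chr11:106487747-106488046 (minus) for Ern1.
Herpud1: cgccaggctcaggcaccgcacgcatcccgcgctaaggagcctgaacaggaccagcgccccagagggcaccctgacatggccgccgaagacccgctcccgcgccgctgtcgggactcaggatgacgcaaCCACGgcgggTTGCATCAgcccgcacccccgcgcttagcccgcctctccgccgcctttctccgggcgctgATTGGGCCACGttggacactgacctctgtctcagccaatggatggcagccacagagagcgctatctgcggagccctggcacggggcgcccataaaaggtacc
Syvn1: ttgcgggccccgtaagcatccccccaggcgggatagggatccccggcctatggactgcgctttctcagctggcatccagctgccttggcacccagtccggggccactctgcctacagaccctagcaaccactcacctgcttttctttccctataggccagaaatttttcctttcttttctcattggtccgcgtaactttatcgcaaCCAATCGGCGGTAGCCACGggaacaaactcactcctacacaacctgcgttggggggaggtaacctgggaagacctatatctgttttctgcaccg
Calr: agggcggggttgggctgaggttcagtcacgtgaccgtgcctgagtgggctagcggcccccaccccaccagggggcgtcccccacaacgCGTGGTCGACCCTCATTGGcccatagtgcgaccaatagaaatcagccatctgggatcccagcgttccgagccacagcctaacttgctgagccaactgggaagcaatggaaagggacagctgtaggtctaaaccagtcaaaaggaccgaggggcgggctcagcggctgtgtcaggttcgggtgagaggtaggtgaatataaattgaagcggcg
Sel1l: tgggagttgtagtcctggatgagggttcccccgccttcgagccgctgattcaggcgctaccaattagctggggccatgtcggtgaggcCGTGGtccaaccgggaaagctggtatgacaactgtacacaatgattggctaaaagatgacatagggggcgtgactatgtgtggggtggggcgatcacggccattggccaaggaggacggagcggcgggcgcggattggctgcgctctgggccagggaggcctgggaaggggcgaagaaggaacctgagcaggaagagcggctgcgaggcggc
Ern1: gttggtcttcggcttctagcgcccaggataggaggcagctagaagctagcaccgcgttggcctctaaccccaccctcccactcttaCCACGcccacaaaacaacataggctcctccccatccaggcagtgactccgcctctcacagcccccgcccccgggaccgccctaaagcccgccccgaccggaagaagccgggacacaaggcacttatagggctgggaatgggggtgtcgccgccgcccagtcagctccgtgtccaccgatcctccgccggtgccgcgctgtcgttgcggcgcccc

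Both sensors and Xbp1 had higher mean levels in the libraries labelled knockout. For all 3, both knockout-labelled values exceeded both wild-type values, as they did for 27.4% of all genes. None of the 3 passed the test over all genes (edgeR's quasi-likelihood test, two-sided, Benjamini-Hochberg adjusted p below 0.05). Over the 10 genes together the test called 0, where it called 0.103% of all genes in either direction, all of them higher. At an unadjusted p below 0.05, 3 of the 10 were higher (Ern1, Sel1l and Herpud1), against 9.82% of all genes, and 0 of the 10 were lower, against 2.08%. On the same counts DESeq2 called 1 of the 10 (Ern1, higher), where it called 3.29% of all genes higher and 0.196% lower. With limma-voom 0 of the 10 were called, against 0.0747% of all genes.

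Ern1 (ENSMUSG00000020715), the gene of the kinase and RNase IRE1, lies on chr11:106255964-106349166 of NCBIM37, minus strand. It had 68.1 and 56.9 CPM in knockout-labelled replicates 1 and 2, against 33.5 and 20.2 CPM in wild-type replicates 3 and 8. Both knockout-labelled libraries stood above both wild-type libraries, and the wild-type pair differed by 1.66 times. Group means came to 62.5 ± 7.93 and 26.8 ± 9.40 CPM (SD, n = 2 each), a log2 fold change of 1.22 (SE 0.29, edgeR adjusted p = 0.295, 95% interval 0.51 to 1.94). Ern1 was the one of the 10 that DESeq2 called (1.21, SE 0.34, adjusted p = 0.0138), where 3.29% of all genes were called higher. With a single knockout-labelled library the log2 fold change was 1.09 without replicate 1 and 1.34 without replicate 2. With a single wild-type library it was 1.63 without replicate 3 and 0.89 without replicate 8.

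Xbp1 (ENSMUSG00000020484, chr11:5420662-5425896, plus strand), the substrate of IRE1, had 66.4 and 35.8 CPM in the libraries labelled knockout, against 30.4 and 29.3 CPM in wild type. Replicate 1 was high and replicate 2 only a little above the wild-type pair. The fitted log2 ratio was 0.78 (SE 0.32, edgeR adjusted p = 0.423). Leaving out replicate 1 gave 0.26 and leaving out replicate 2 gave 1.14. A count per gene does not separate the spliced from the unspliced mRNA, so the activity of IRE1 was not measured.

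Atf6 (ENSMUSG00000026663, chr1:172634588-172797902, minus strand), the sensor that becomes a transcription factor once cut, had 168 and 117 CPM in the libraries labelled knockout, against 99.4 and 98.0 CPM in wild type. The wild-type values lay close together, and both knockout-labelled values were above them. Its log2 fold change was estimated at 0.53 (SE 0.23, edgeR adjusted p = 0.433). Leaving out knockout-labelled replicate 1 gave 0.25 and leaving out replicate 2 gave 0.76. Within each library, which is free of library scaling, Ern1 had 0.404 and 0.485 counts per count of Atf6 in the libraries labelled knockout, against 0.337 and 0.206 in wild type. The ratios did not overlap, and the exact permutation test over libraries gave p = 0.333, two-sided, the smallest that 2 against 2 libraries allow. Any pair whose ratios do not overlap gives this p, so it adds nothing to the lack of overlap.

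**Figure D1:**
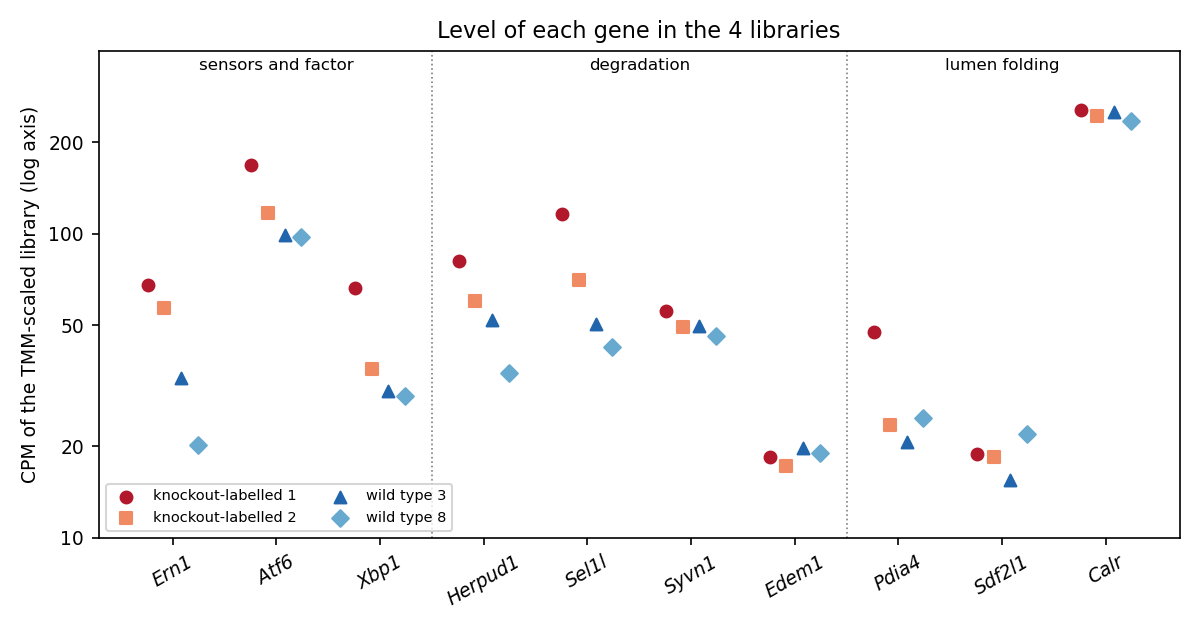
Level of each of the 10 genes in the 4 libraries, in CPM of the TMM-scaled library on a log axis, with 1 symbol per library. Ern1, Atf6, Xbp1, Herpud1 and Sel1l have both knockout-labelled symbols above both wild-type symbols, Edem1 has both below, and Calr ranges only from 235.7 to 254.5 CPM.

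Among the 4 degradation genes, Sel1l and Herpud1 had knockout-labelled values that all exceeded the wild-type values, Syvn1 overlapped, and Edem1 lay slightly lower in both. Over the 10 genes, groups without overlap numbered 5 in the higher direction, against 27.4% of all genes, and 1 in the lower direction, against 26.7%. The product of Syvn1, the ubiquitin ligase HRD1, sits in the ER membrane with SEL1L, its adaptor for misfolded substrates. HERPUD1 is a membrane scaffold of that complex, and EDEM1 is a lectin-like protein that hands misfolded glycoproteins to it.

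Sel1l (ENSMUSG00000020964, chr12:93044483-93087597, minus strand) had 116 and 70.3 CPM in the libraries labelled knockout, against 50.5 and 42.3 CPM in wild type. Both knockout-labelled values were higher, and replicate 1 was 1.66 times replicate 2. Group means came to 93.4 ± 32.6 and 46.4 ± 5.77 CPM (SD, n = 2 each), with a log2 fold change of 1.01 (SE 0.28, edgeR adjusted p = 0.353, 95% interval 0.31 to 1.71). It was 0.60 without knockout-labelled replicate 1 and 1.32 without replicate 2. Without wild-type replicate 3 it was 1.14, and without wild-type replicate 8 it was 0.88. DESeq2 gave it an adjusted p of 0.0616.

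Herpud1 (ENSMUSG00000031770, chr8:96910338-96919277, plus strand) had 81.6 and 60.3 CPM in the libraries labelled knockout, against 52.2 and 34.9 CPM in wild type. The lower knockout-labelled value and the higher wild-type value were nearer each other than the members of either pair. Knockout-labelled over wild type, the log2 ratio was 0.71 (SE 0.27, edgeR adjusted p = 0.419). It was 0.47 without knockout-labelled replicate 1 and 0.90 without replicate 2. Without wild-type replicate 3 it was 1.02, and without wild-type replicate 8 it was 0.43. Its window, printed above, holds ERSE-II with its first base at position -52 from the start, and the ATF4-type core at -112.

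Syvn1 (ENSMUSG00000024807, chr19:6046576-6053712, plus strand) had 55.6 and 49.2 CPM in the libraries labelled knockout, against 49.8 and 46.1 CPM in wild type. With overlapping groups, it had a log2 fold change of 0.13 (SE 0.19, edgeR adjusted p = 0.723, 95% interval -0.33 to 0.59), so its upper bound is a 1.504-fold difference. ERSE begins at position -44 from its start. In the annotation 83 exon bases of Syvn1 are shared with Mrpl49 on the opposite strand, and since the strand of the counts is not stated, reads there cannot be assigned.

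Edem1 (ENSMUSG00000030104, chr6:108778635-108809350, plus strand) had 18.4 and 17.3 CPM in the libraries labelled knockout, against 19.7 and 18.95 CPM in wild type. Both knockout-labelled values were lower by a small margin. Knockout-labelled over wild type, the log2 ratio was -0.12 (SE 0.21, edgeR adjusted p = 0.779, 95% interval -0.63 to 0.40).

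The adaptor and the ligase of the same complex were set against each other within each library. Sel1l had 2.09 and 1.43 counts per count of Syvn1 in the libraries labelled knockout, against 1.01 and 0.919 in wild type. The ratio was higher in both knockout-labelled libraries, by 1.79-fold between the group means on the log scale (exact permutation p = 0.333, two-sided, the smallest possible here). Sel1l per count of Edem1 was 6.32 and 4.07 in the libraries labelled knockout, against 2.56 and 2.23 in wild type, a 2.12-fold difference with the same exact p of 0.333. Herpud1 per count of Syvn1 was 1.47 and 1.22 in the libraries labelled knockout, against 1.05 and 0.757 in wild type, 1.505-fold, again with an exact p of 0.333. Ern1 per count of Calr was 0.268 and 0.233 in the libraries labelled knockout, against 0.133 and 0.0856 in wild type (exact permutation p = 0.333). Pdia4 per count of Calr overlapped, with 0.187 and 0.0959 in the libraries labelled knockout, against 0.0822 and 0.105 in wild type (exact permutation p = 0.667). These pairs, and that of Ern1 with Atf6, were chosen after their values were seen.

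The lumen folding genes did not separate the groups. Calr and Sdf2l1 had nearly equal means in both groups, and Pdia4 was high in knockout-labelled replicate 1 only. For all 3 the values of the groups overlapped.

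Calr (ENSMUSG00000003814, chr8:87365749-87370833, minus strand), the gene of calreticulin, a calcium-binding lectin chaperone of glycoproteins, had 254.5 and 244.5 CPM in the libraries labelled knockout, against 251.5 and 235.7 CPM in wild type. The 4 values were interleaved. The fitted log2 ratio was 0.03 (SE 0.19, edgeR adjusted p = 0.932, 95% interval -0.42 to 0.49), and the interval as a fold runs from 0.746 to 1.41. Calr holds ERSE at position -162 from its start, on the opposite strand.

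Sdf2l1 (ENSMUSG00000022769, chr16:17130231-17132476, minus strand), the gene of a lumen protein that works with the chaperone BiP, had 18.9 and 18.5 CPM in the libraries labelled knockout, against 15.5 and 21.99 CPM in wild type. Both knockout-labelled values lay between the wild-type values. The fitted log2 ratio was -0.0045 (SE 0.25, edgeR adjusted p = 0.993, 95% interval -0.63 to 0.62), and its sign was positive without wild-type replicate 8 or without knockout-labelled replicate 2.

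Pdia4 (ENSMUSG00000025823, chr6:47746141-47763511, minus strand), a protein disulfide isomerase of the lumen, had 47.5 and 23.5 CPM in the libraries labelled knockout, against 20.7 and 24.8 CPM in wild type. Replicate 1 was 2.03 times replicate 2, which lay between the wild-type values. The log2 fold change of 0.64 (SE 0.36, edgeR adjusted p = 0.453) rested on replicate 1. It was 0.04 without that library and 1.05 without replicate 2.

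**Figure D2:**
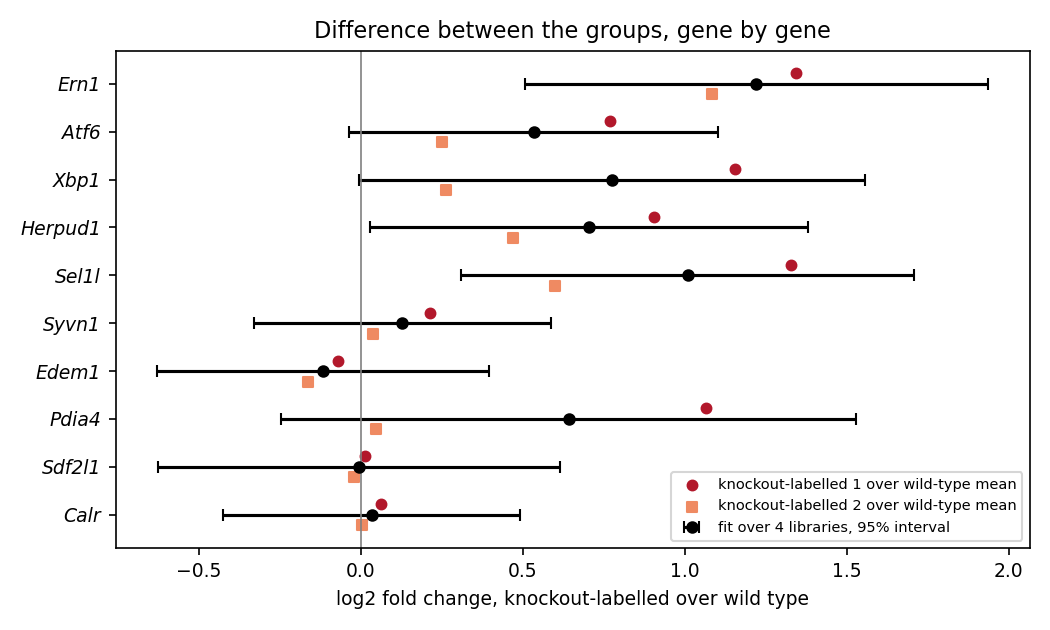
Log2 fold change of each gene, knockout-labelled over wild type, on the horizontal axis. Black points with bars are the fit over 4 libraries with its 95% interval, and coloured symbols are each knockout-labelled library over the wild-type mean. The intervals of Ern1, Sel1l and Herpud1 lie above 0, and replicate 1 is to the right of replicate 2 in every row.

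Of the 10 genes, 8 had a log2 fold change above 0, against 50% of all genes, and the median was 0.59, against -0.00077 over all genes. The knockout-labelled libraries contributed unequally. Knockout-labelled replicate 1 was above replicate 2 for 10 of the 10 genes, against 49.6% of all genes. Set against the wild-type mean, the median log2 ratio of the 10 genes was 0.84 in replicate 1 and 0.15 in replicate 2. Replicate 1 exceeded both wild-type libraries for 8 of the 10, against 44.3% of all genes, and replicate 2 for 5, against 34.7%.

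Leaving out knockout-labelled replicate 2 raised the number of the 10 genes called from 0 to 6 (Ern1, Atf6, Xbp1, Herpud1, Sel1l and Pdia4), all higher, where 17.3% of all genes were then called higher. Leaving out replicate 1, the library with the high neutrophil markers, left 0 called, where 1.29% of all genes were called higher, and the median log2 fold change was 0.15. The 3 genes with the largest values without replicate 1 were Ern1, Sel1l and Herpud1. They were also the 3 with an unadjusted p below 0.05 in the fit over all 4 libraries. Those fits share every library but replicate 1, so likeness between them is largely built in.

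**Figure D3:**
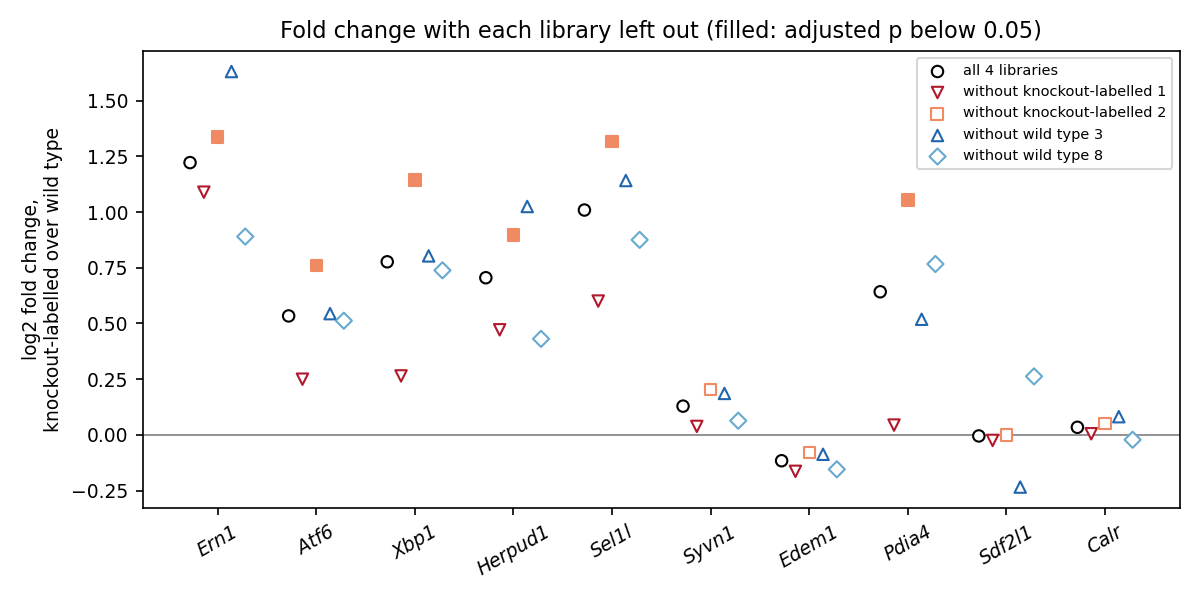
Log2 fold change of each gene, knockout-labelled over wild type, in the fit with all 4 libraries and with each library left out, with filled symbols for an adjusted p below 0.05. Filled symbols appear only without knockout-labelled replicate 2, and the values of Xbp1, Atf6 and Pdia4 without replicate 1 are 0.26, 0.25 and 0.04.

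Levels were compared between genes only after division by the summed exon length of the annotation, as CPM per kilobase. Calr was the most abundant at 86.6 in the libraries labelled knockout and 84.6 CPM per kilobase in wild type, above 93.7% of 9537 annotated genes in wild type. In the libraries labelled knockout it was followed by Herpud1 (30.4), Atf6 (19.1), Sdf2l1 (16.9), Xbp1 (15.7), Pdia4 (14.3), Sel1l (10.9), Syvn1 (10.8), Ern1 (7.64) and Edem1 (3.05). In wild type the order after Calr was Herpud1 (18.7), Sdf2l1 (16.9), Atf6 (13.2), Syvn1 (9.86), Xbp1 (9.19), Pdia4 (9.16), Sel1l (5.42), Edem1 (3.30) and Ern1 (3.28). In the libraries labelled knockout each neighbour from Atf6 to Syvn1 in this order overlapped the next by library. In wild type the overlapping neighbours were Herpud1 with Sdf2l1, Xbp1 with Pdia4 and Edem1 with Ern1. In these terms Sel1l was above its partner Syvn1 in knockout-labelled replicate 1 (13.6 against 11.4) and below it in replicate 2 (8.22 against 10.1). In both wild-type libraries it was below Syvn1 (5.90 and 4.95 against 10.2 and 9.48).

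The profile over the 4 libraries most like that of Ern1, by Euclidean distance of centred log2 CPM, belonged to Gm8221 (distance 0.0827), followed by Klf5 (0.165), Fermt2 (0.184), Trim26 (0.210) and Gm15441 (0.248). Of these only Trim26 had a level comparable to Ern1, with 57.2 and 42.9 CPM in the libraries labelled knockout and 23.2 and 14.5 CPM in wild type. Gm8221, Klf5, Fermt2 and Gm15441 were below 4 CPM in each library. Among the 10 genes Sel1l (0.553) and Herpud1 (0.565) were nearest to Ern1, and Sdf2l1 (1.52) was farthest. With 4 libraries such likeness is a description.

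The other genes of the ER stress response were taken from lists. With all 4 libraries, 6 lists had 0 calls by edgeR. Unadjusted p below 0.05 was reached in them by 2 chaperones, 1 disulfide isomerase or oxidase, 3 degradation genes, 0 sensors, 3 translocon genes and 1 decay target of IRE1. All of these were higher, where 9.82% of all genes were higher at that p. DESeq2 called 1, 1, 2, 0, 1 and 1 in these lists in that order, all higher, against 3.29% of all genes called higher and 0.196% lower. Limma-voom called 0 in them, against 0.0747% of all genes. Of 18 chaperones and co-chaperones none passed, 13 had a log2 fold change above 0, and the median was 0.14. The 3 with the smallest p were Dnajb9, an ER J-domain protein, Hspa5, the gene of BiP, and Dnajc1. Dnajb9 had 36.4 and 13.4 CPM in the libraries labelled knockout, against 6.85 and 6.63 CPM in wild type (log2 fold change 1.88, SE 0.48, edgeR adjusted p = 0.314). Hspa5 had 1843 and 541 CPM in the libraries labelled knockout, against 485 and 422 CPM in wild type (1.40, SE 0.56, edgeR adjusted p = 0.419). Dnajc1 had 15.5 and 8.66 CPM in the libraries labelled knockout, against 6.09 and 7.37 CPM in wild type (0.84, SE 0.35, edgeR adjusted p = 0.430). As with Pdia4, knockout-labelled replicate 1 was far above replicate 2, and 8 of the 18 were called without replicate 2 (7 higher and 1 lower), where 17.3% of all genes were called higher and 15.3% lower. None of the 18 was called without replicate 1.

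The ERSE and ERSE-II holders of these lists gave no common direction. Beside Calr and Syvn1, whole ERSE matches were found for Hspa5, Canx, Creld2, Dnajc3, Hsp90b1 and Pdia6 among the genes in the table, and ERSE-II for Dnajb11 beside Herpud1. Hspa5 and Herpud1 were the 2 of these 10 genes whose knockout-labelled values both exceeded wild type, against 27.4% of all genes, and Dnajb11 was the 1 with both below, against 26.7%. Canx, the membrane partner of calreticulin, had 487 and 372 CPM in the libraries labelled knockout, against 390 and 403 CPM in wild type. Hsp90b1 had 456 and 248 CPM in the libraries labelled knockout, against 248 and 294 CPM in wild type. The log2 fold changes of Pdia6 (0.13), Dnajc3 (-0.01), Creld2 (-0.04) and Dnajb11 (-0.12) were near 0, with edgeR adjusted p from 0.723 to 0.978.

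Of 15 disulfide isomerases and oxidases in the table none passed, and the median was -0.04. Ero1l, the oxidase that recharges disulfide isomerases, had 372 and 96.0 CPM in the libraries labelled knockout, against 41.4 and 63.4 CPM in wild type (log2 fold change 2.16, SE 0.63, edgeR adjusted p = 0.354). Txndc12 (0.65, SE 0.30) and Qsox1 (0.47, SE 0.22) came next, each with an adjusted p of 0.433. With replicate 2 of the libraries labelled knockout left out, 2 were called higher and 1 lower, against 17.3% and 15.3% of all genes.

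Of 30 other degradation genes none passed, 14 were above 0, and the median was -0.0027. Derl1, a channel component of the HRD1 complex, had 135 and 99.4 CPM in the libraries labelled knockout, against 63.1 and 61.2 CPM in wild type (log2 fold change 0.91, SE 0.22, edgeR adjusted p = 0.292). The lectins Erlec1 and Os9, which bring glycoproteins to SEL1L, followed. Erlec1 had 102 and 58.4 CPM in the libraries labelled knockout, against 36.1 and 34.9 CPM in wild type (1.18, SE 0.30, edgeR adjusted p = 0.303). Os9 had 112 and 97.4 CPM in the libraries labelled knockout, against 75.2 and 74.0 CPM in wild type (0.49, SE 0.18, edgeR adjusted p = 0.418). With replicate 2 of the libraries labelled knockout left out, 6 of the 30 were called, all higher, near the 17.3% of all genes called higher in that fit. The Edem1 relatives Edem2 (0.06) and Edem3 (-0.08) and the segregase gene Vcp (-0.27), named after their values were seen, had fold changes near 0 or below.

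Of 8 other sensors and site proteases none passed, with a median of 0.17. Tmbim6 (0.24, SE 0.18), Creb3 (0.37, SE 0.30) and Mbtps1 (0.23, SE 0.18), the last being the protease that first cuts ATF6, had the smallest p, with edgeR adjusted p from 0.523 to 0.549. Eif2ak3, the gene of the third sensor PERK and outside the naming rule, had 17.8 and 12.3 CPM in the libraries labelled knockout, against 14.4 and 13.4 CPM in wild type (0.11, SE 0.27, edgeR adjusted p = 0.832). With replicate 2 of the libraries labelled knockout left out, 1 of the 8 was called higher and 1 lower, against 17.3% and 15.3% of all genes.

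In the fit with all 4 libraries, the list of the PERK-ATF4-CHOP branch had the only calls by edgeR among these lists. It holds ATF4 and CHOP, their known targets, the phosphatase subunit gene Ppp1r15b and the other eIF2alpha kinases Eif2ak1, Eif2ak2 and Eif2ak4. Atf4 itself had a log2 fold change of 0.43 (SE 0.28, edgeR adjusted p = 0.483), with overlapping groups. Ddit3, the gene of CHOP, had 1.74 (SE 0.28, edgeR adjusted p = 0.136). Neither was called, nor was Eif2ak3, and the activity of the kinases was not measured. Among the 17 measured genes of the list, 4 were called higher (Trib3, Atf5, Cebpb and Slc7a11), against 0.103% of all genes. All 17 were above 0, against 50% of all genes, with a median of 1.81. Trib3, a pseudokinase, had 228 and 153 CPM in the libraries labelled knockout, against 7.87 and 5.05 CPM in wild type. Trib3 had a log2 fold change of 4.89 (SE 0.35, edgeR adjusted p = 0.0270), Atf5, a transcription factor, 2.96 (SE 0.23, adjusted p = 0.0270) and Cebpb, another, 2.70 (SE 0.24, adjusted p = 0.0430). All higher, 10 were called when knockout-labelled replicate 1 was left out (1.29% of all genes were called higher and 0.0467% lower) and 9 when replicate 2 was (17.3% higher and 15.3% lower). Leaving out wild-type replicate 3 gave 8 (0.373% of all genes higher and 0.00933% lower) and leaving out wild-type replicate 8 gave 3 (0.233% higher and 0.0187% lower). In replicate 1 the median log2 ratio to the wild-type mean was 1.73 and in replicate 2 it was 1.88, whereas for the 10 sensor and degradation genes it was 0.84 and 0.15. Replicate 1 was above replicate 2 for 12 of the 17, against 49.6% of all genes. It was above both wild-type libraries for 17, against 44.3% of all genes, and replicate 2 was for 13, against 34.7%. Whether this branch differs from the 10 genes in its dependence on the library was not tested.

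Of 21 translocon and signal recognition genes none passed, and the median was 0.12. Sec61g (1.06, SE 0.28, edgeR adjusted p = 0.325), Sec62 (0.76, SE 0.25, adjusted p = 0.390) and Srp72 (0.89, SE 0.33, adjusted p = 0.415) had the smallest p. Without knockout-labelled replicate 2, 3 of the 21 were called higher and 1 lower, no larger a share than among all genes (17.3% higher and 15.3% lower). Of 7 mRNAs known as decay targets of IRE1 only Sparc, Bloc1s1 and Hgsnat were in the table. Bloc1s1, an established target in mouse cells, had 14.9 and 17.5 CPM in the libraries labelled knockout, against 14.7 and 15.3 CPM in wild type (log2 fold change 0.11, SE 0.22, edgeR adjusted p = 0.809). Hgsnat had -0.09 (SE 0.25) and Sparc 1.77 (SE 0.45, edgeR adjusted p = 0.314), and Sparc was called with either library labelled knockout left out.

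**Figure D4:**
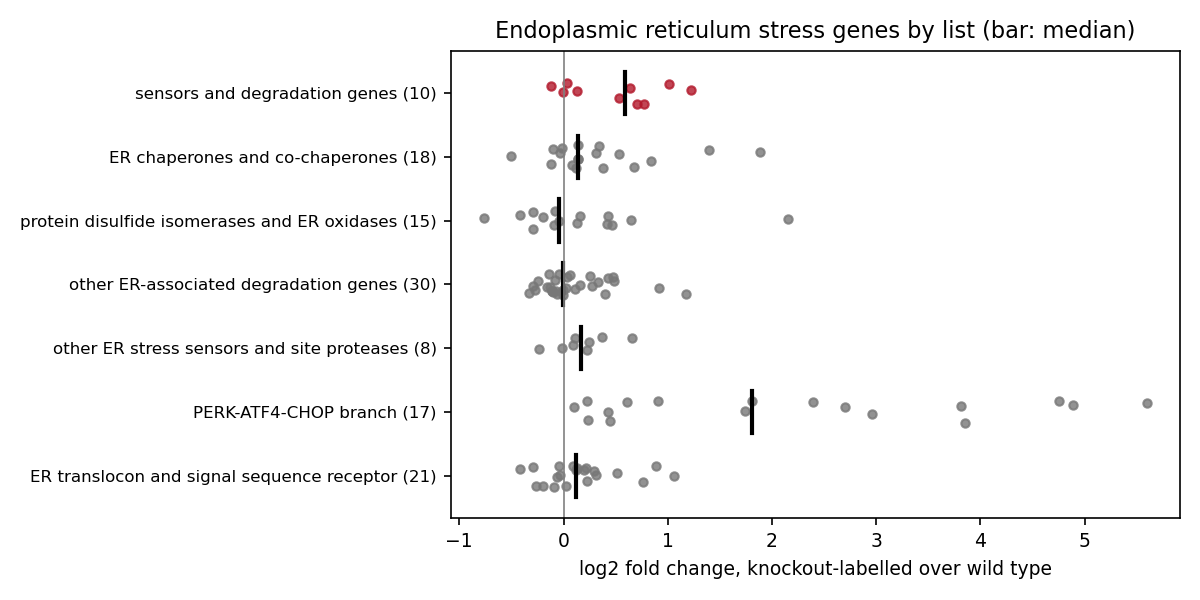
Log2 fold change, knockout-labelled over wild type, of each gene of the ER stress lists, with a black bar at each median and the number of genes in the table in parentheses. The 10 sensor and degradation genes have a median of 0.59, the PERK-ATF4-CHOP branch 1.81, and the other lists from -0.04 to 0.17.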

How the data were processed

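RNA was sequenced from 4 libraries. The authors deposited raw counts per gene for 10716 genes, the same counts as CPM of the TMM-scaled library, and a comparison table with p-values, whose log2 fold change runs wild type minus knockout. In the authors' deposited table Ern1 has a log2 fold change of -1.28 and an adjusted p of 0.337. All genes in the table were above 1 CPM in 2 or more libraries. Among the tools in the submitters' processing notes are HTSeq, TopHat2 2.0.8, Trimmomatic 0.30, limma and edgeR, with builds mm9 and NCBIM37, without roles. How strand and shared reads were counted is not given in the sources used here. The p-value and score columns (t and B) of the authors' deposited table were not used in any test.

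Counts were fitted in edgeR 4.0.16 under R 4.3.3 over all genes (filterByExpr, which removed 0 genes, TMM, estimateDisp, glmQLFit with robust=TRUE and legacy=TRUE, glmQLFTest), with 2 residual degrees of freedom. The SE was the absolute log2 fold change divided by the square root of F. Profiles were log2 CPM values (prior count 2). Alternatives were RLE or no scaling, no filter or a stricter one, DESeq2 1.42.0, limma-voom (limma 3.58.1), legacy=FALSE and each library left out. The fit was tested on simulated data, where it called 11 of 50 genes changed 2-fold and 46 of 50 changed 4-fold. Most changes of 2-fold were thus not called there. Positions and exon lengths are from GENCODE on NCBIM37 (9537 genes found). The 10 genes and the lists were chosen with earlier results of these data known. Named beyond the 10 were Adar, the 3 genes of smallest p in each list and the 5 profiles nearest to that of the gene with the smallest p. The ERSE holders, Slc7a11, Eif2ak3, Atf4, Ddit3, Edem2, Edem3, Vcp, Klf1, Slc4a1, Itga2b and Lyz2 were named outside that rule, after their values were seen.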

Additional observations from a re-analysis of the deposited data

How the results depend on the processing

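No paired analysis was possible because the groups share no replicate number. The 11 genes called over all genes (0 lower, where 223 were lower at an unadjusted p below 0.05) became 85 higher and 2 lower without library scaling, and 353 higher and 21 lower with DESeq2. Leaving out each library in turn gave 25 to 1851 higher and 1 to 1641 lower. The 0 calls among the 10 genes became 1 with DESeq2. Across the alternatives 6 to 9 of the 10 genes had groups without overlap. With a library left out, 1 library stands against 2, and lack of overlap is then easier to reach. The share of all genes without overlap was not computed for those settings. Calls in the other ER lists (4 of 112 genes) became 8 without scaling, 16 with DESeq2 and 3 to 33 with a library left out. Of 110 values of single genes under the alternatives, 99 kept their sign and their side of the threshold and 7 passed it. The other 4 changed sign, namely Calr without scaling (-0.0302) and without wild-type replicate 8, and Sdf2l1 without knockout-labelled replicate 2 (0.00062) and without wild-type replicate 8. With a library left out, Calr ran from -0.0216 to 0.0818 and Sdf2l1 from -0.234 to 0.263. The median of the 10 genes, 0.59 with all libraries, was 0.15 without knockout-labelled replicate 1 and 0.83 without replicate 2. A fit with 1 library in a group assumes that it varies like the other group. With 2 libraries in a group, intervals are wide. The effect of depth was not tested.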
